A study of Mus musculus with 4 samples.

Results

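The node, left-right axis and motile cilia genes described here are *Nodal*, *Lefty1*, *Lefty2*, *Dand5*, *Cfc1*, *Noto*, *Foxj1*, *Rfx3* and *Pkd1l1*. They were chosen by name, as every non-control probe whose gene name on the array is that of a member, which gave 9 of 37325 genes and 13 of 56604 probes. Total RNA of whole C57BL/6 mouse embryos was labelled with Cy3 and hybridized to Agilent SurePrint G3 mouse arrays. The groups were WT at E8.5, *Dyrk2*-/- at E8.5, WT at E10.5 and *Dyrk2*-/- at E10.5, each with 1 array, and the 4 arrays lay on 1 slide. *Dyrk2*, which encodes a protein kinase, had been disrupted with a CRISPR/Cas9 nickase, and 3 deletion alleles were found in the founders. Which of them the embryos carried, and how many embryos gave each RNA, is not given in the sources used here.

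The node is a pit in the midline of the early embryo whose motile cilia drive a leftward flow of fluid, and cells at its rim sense this flow. Flow lowers the antagonist *Dand5* on the left, which frees the TGF-β ligand *Nodal* to signal through receptors that need an EGF-CFC co-receptor such as *Cfc1*, while *Lefty1* in the midline and *Lefty2* in the left lateral plate mesoderm restrict that signal. *Noto* acts in the node upstream of *Foxj1*, which turns on the genes of motile cilia, *Rfx3* is another transcription factor of ciliogenesis, and *Pkd1l1* encodes a cilium protein needed to sense the flow.

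Levels are log2 intensity minus the 75th percentile of the array, so that 0 marks that percentile, and they compare a probe between arrays but not with another probe. A probe was well above background where the scanner software marked its signal as exceeding the background of the array, and a gene stands for its brightest probe, the 1 with the highest mean over the 4 arrays. A gene was called higher or lower between a pair of arrays at 1.5-fold or more if that probe was well above background on at least 1 of them. Where it was so on just 1 of them, the fold is a bound against the lowest measured level of the other array and is written "at least". With 1 array per group there was no replicate check and no p at a stage. The scanner's own error of a log2 difference, given after ±, covers the spot and not the embryos.

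The deletion was looked at first. At E8.5 the brightest *Dyrk2* probe had a level of 0.06 in WT and 0.76 in the mutant, and the E10.5 arrays gave −0.31 and 0.34. It was thus not lower on either array labelled *Dyrk2*-/- (its E8.5 difference was 0.15 under a scaling by spike-in control probes), and whether the probe lies outside the deleted bases is not known, so that *Dyrk2* checks no label here. Every direction between genotypes below rests on the labels, and *Dyrk2*-/- stands for the array labelled so. The paper reports decreases of *Foxa2* and *Brachyury* (*T*), among other genes, in *Dyrk2*-/- embryos. On the arrays labelled so, *Foxa2* was 2.08-fold lower at E8.5 and 1.25-fold lower at E10.5. *T* was 1.28-fold lower at E8.5 and 2.81-fold lower at E10.5. The paper's reports rest in part on these same arrays, so that both genes are no independent check of the labels.

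Of the ligand and its antagonists, *Lefty2* differed between the arrays. Its level was −0.94 in WT at E8.5, −2.82 in *Dyrk2*-/- at E8.5, −3.43 in WT at E10.5 and −3.47 in *Dyrk2*-/- at E10.5. The WT E8.5 array stood above the other 3, and the mutant E8.5 array lay between it and both E10.5 arrays. *Lefty2* was 3.69-fold lower in *Dyrk2*-/- at E8.5 (log2 difference −1.88 ± 0.22) and differed 1.03-fold at E10.5 (−0.04 ± 0.27). From E8.5 to E10.5 it was 5.62-fold lower in WT and 1.57-fold lower in *Dyrk2*-/-. In RNA of whole embryos, fewer cells that express a gene and less RNA of it per cell cannot be told apart.

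*Nodal*, the ligand, had levels of −3.24, −3.43, −3.49 and −3.25 in the same order, WT and *Dyrk2*-/- at E8.5 and then at E10.5. The 4 arrays lay close together, and no pair reached the 1.5-fold threshold. *Dand5*, which binds Nodal outside the cell, had levels of −2.61, −2.76, −2.25 and −2.39. Both E10.5 arrays were slightly above both E8.5 arrays, with a log2 difference of 0.36 in either genotype, and *Dand5* was called in no pair. *Lefty1* had levels of −5.38, −6.81, −4.73 and −4.41 and was well above background on the *Dyrk2*-/- E10.5 array only. Its bounds were small, at least 1.23-fold higher than in WT at E10.5 and at least 1.08-fold higher than in *Dyrk2*-/- at E8.5.

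*Cfc1*, the co-receptor, had a level of −0.70 in WT at E8.5, −1.96 in *Dyrk2*-/- at E8.5, −4.40 in WT at E10.5 and −4.11 in *Dyrk2*-/- at E10.5. Both E8.5 arrays were above both E10.5 arrays, and within E8.5 the WT array was the higher. The E10.5 levels lay near the lowest measured on those arrays, −4.72 in WT and −4.77 in *Dyrk2*-/-. *Cfc1* was 2.40-fold lower in *Dyrk2*-/- at E8.5 (log2 difference −1.27 ± 0.21) and 1.22-fold higher at E10.5 (0.29 ± 0.39), a difference smaller than the scanner's error. From E8.5 to E10.5 it was 13.1-fold lower in WT and 4.44-fold lower in *Dyrk2*-/-.

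Of the node and cilia factors, *Noto* was seen at E8.5. At E8.5 the brighter of its 2 probes had levels of −3.14 in WT and −2.86 in *Dyrk2*-/-. The E10.5 levels were −5.80 and −7.04, neither of them well above background. *Noto* was 1.22-fold higher in *Dyrk2*-/- at E8.5 (0.29 ± 0.24), below the threshold. From E8.5 to E10.5 it was at least 2.98-fold lower in WT and at least 3.77-fold lower in *Dyrk2*-/-. No array had the other *Noto* probe well above background.

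*Foxj1* went the other way with stage. Its level was −3.49 in WT at E8.5, −4.30 in *Dyrk2*-/- at E8.5, −1.76 in WT at E10.5 and −1.84 in *Dyrk2*-/- at E10.5. Both E10.5 arrays were above both E8.5 arrays, and the *Dyrk2*-/- E8.5 array was the lowest. There *Foxj1* lay near the lowest level measured on that array (−4.53). *Foxj1* was 1.76-fold lower in *Dyrk2*-/- at E8.5 (−0.81 ± 0.35) and differed 1.06-fold at E10.5 (−0.08 ± 0.21). From E8.5 to E10.5 it was 3.32-fold higher in WT and 5.52-fold higher in *Dyrk2*-/-. With a normexp background correction, which adds 50 to every intensity, the E8.5 difference of *Foxj1* was −0.12, below the threshold, and its stage differences were 1.81-fold in WT and 1.95-fold in *Dyrk2*-/-. *Cfc1* was then 4.01-fold and 2.15-fold lower with stage, and *Noto* 1.68-fold and 2.08-fold lower, less than its bounds. *Lefty2* was then 2.14-fold lower in *Dyrk2*-/- at E8.5 and 2.97-fold lower with stage in WT.

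*Rfx3* had levels of 1.71, 1.70, 1.88 and 1.71 at its brightest probe and was called in no pair. Its other 2 probes were also well above background on all 4 arrays, with levels of −3.21, −3.30, −2.65 and −2.53 and of −3.17, −3.59, −3.17 and −2.74. Their log2 differences between genotypes stayed below the threshold, with −0.09 and −0.42 for E8.5 against 0.12 and 0.43 for E10.5. Between stages, however, these 2 probes were 1.70-fold and 1.79-fold higher at E10.5 in *Dyrk2*-/-, where the brightest *Rfx3* probe differed 1.01-fold. *Pkd1l1*, the flow sensor, was not well above background at either of its 2 probes on any array, so that no fold is given.

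**Figure D1:**
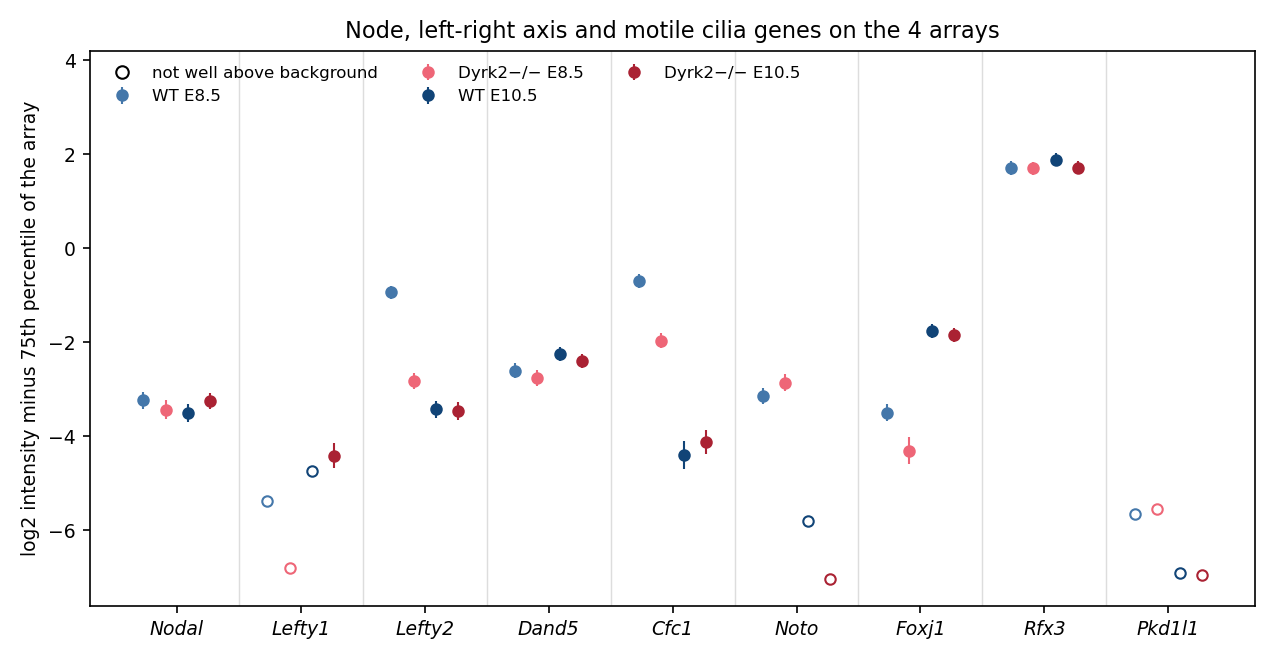
Level of each member at its brightest probe on the 4 arrays, as log2 intensity minus the 75th percentile of the array, with the scanner's error as bars (1 array per group) and open circles for probes not well above background. *Lefty2* (−0.94 against −2.82), *Cfc1* (−0.70 against −1.96) and *Foxj1* (−3.49 against −4.30) show the gap between the WT and *Dyrk2*-/- arrays at E8.5, and at E10.5 the genotypes lie close together for these 3 genes.

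Between genotypes at E8.5, 3 of the 7 members measured on at least 1 array were called, *Lefty2*, *Cfc1* and *Foxj1*, all of them lower in *Dyrk2*-/-. Among all genes 11.7% were called at E8.5, 5.14% higher and 6.52% lower (2430 of 20848 genes). At E10.5, 0 of 7 members were called, where 7.72% of all genes were, 3.5% higher and 4.22% lower (1649 of 21351). Whether the genotype difference of *Lefty2*, *Cfc1* or *Foxj1* differs between the stages was not tested, since 1 array per group leaves no residual for it.

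Between stages on the WT arrays, 4 of 7 members were called, *Foxj1* higher and *Cfc1*, *Noto* and *Lefty2* lower at E10.5, where 36.3% of all genes were called, 18.8% higher and 17.5% lower (7919 of 21788). On the *Dyrk2*-/- arrays, 5 of 8 members were called, *Foxj1* and *Lefty1* higher and *Noto*, *Cfc1* and *Lefty2* lower at E10.5. There 31.5% of all genes were called, 17.5% higher and 13.9% lower (6737 of 21405). The call of *Lefty1* rests on its value below background, and its bound is under the threshold. The comparisons of stages and genotypes share arrays, so that a single array, such as WT at E8.5, enters 2 of them.

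Differences are relative to the 75th percentile, and other scalings moved all genes. Scaling by the spike-in control probes put the median difference of all genes at −0.57 between genotypes at E8.5, 0.16 at E10.5, −0.15 between WT stages and 0.59 between *Dyrk2*-/- stages. Without scaling these medians were −0.28, −0.13, 0.10 and 0.25. Between genotypes at E8.5 the spike-in scaling called 9916 of 20848 genes lower, and 3206 were called lower without scaling. *Lefty2*, *Cfc1* and *Foxj1* stayed called lower at E8.5 under both, and under the spike-in scaling *Nodal* (−0.74) and *Dand5* (−0.69) passed the threshold as well, close to the shift of all genes. Between *Dyrk2*-/- stages that scaling called 7 of 8 members, with *Nodal* (0.82), *Dand5* (0.999) and *Rfx3* (0.66) added as higher, where 54.7% of all genes were called (10720 higher and 985 lower), and *Dand5* was also called there without scaling (0.67). Under the spike-in scaling *Cfc1* was 2.85-fold lower and *Foxj1* 8.59-fold higher between these stages. The stage difference of *Lefty2* in *Dyrk2*-/- was −0.01 under the spike-in scaling, −0.34 without scaling and −0.42 with normexp, no longer called. The sign turned for *Noto* at E8.5 (−0.26), *Dand5* at E10.5 (0.02), *Lefty2* at E10.5 (0.12) and *Foxj1* at E10.5 (0.08) under the spike-in scaling, for *Nodal* at E8.5 (0.05) and between *Dyrk2*-/- stages (−0.09) and *Lefty2* at E10.5 (0.05) with normexp, and for *Rfx3* at E10.5 as the mean over its probes (0.13). None of these differences was called.

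The 4 arrays together allowed a fit with a stage and a genotype term (limma), over 32289 probes that exceeded background well on 2 or more arrays, with 1 residual degree of freedom. For stage, 35.3% of these probes had an adjusted p under 0.05 (11397), and 4 of 7 members did, or 3 of 6 with the filter on all 4 arrays, where 9926 of 28622 probes did. *Cfc1* fell by 2.93 on the log2 scale (SE 0.34, adjusted p = 0.000229), with both E10.5 arrays below both E8.5 arrays. *Foxj1* rose by 2.10 (SE 0.25, adjusted p = 0.000295), with both E10.5 arrays above both E8.5 arrays. The fourth was *Noto*, which passed the filter through its E8.5 arrays alone, so that no p is given for it. *Lefty2* fell by 1.57 (SE 0.37, adjusted p = 0.0107), also with both E10.5 arrays below both E8.5 arrays. Over the alternatives the adjusted p of *Lefty2* for stage ran from 1.44e-06 to 0.119, and it missed 0.05 under the spike-in scaling and without the intensity trend. In limma without that trend the adjusted p for stage was 0.0219 for *Cfc1* and 0.0134 for *Foxj1*.

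For genotype, 0.0186% of the probes had an adjusted p under 0.05 in limma (6), and 0 of 7 members did. At an unadjusted p under 0.05, limma gave 1592 probes for genotype, of which 1 belonged to a member, *Lefty2* (coefficient −0.96, unadjusted p = 0.0292, adjusted p = 0.969). This coefficient rests on the E8.5 pair (−1.88), since the E10.5 difference of *Lefty2* (−0.04) was within the scanner's error. Its adjusted p for genotype was 0.000705 without scaling, and over the other alternatives it was at least 0.091.

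The shares of all genes called in each pair, given above, stand beside the counts of every list below. A gene measured on just 1 array of a pair is counted by its own value, also where its bound is under the threshold. This holds for *Mixl1* and *Dnaic2* at E8.5 and for *Mixl1* between WT stages. The other genes of the pathway were followed in a list of 21 Nodal pathway genes. Of these, 19 were measured in E8.5 embryos. There 2 were higher in *Dyrk2*-/-, the Nodal antagonist *Cer1* (2.34-fold) and the ligand *Gdf3* (1.56-fold), and 3 were lower, the co-receptor *Tdgf1* (2.52-fold), the homeobox gene *Gsc* (2.12-fold) and *Mixl1*, measured on the WT array only (at least 1.16-fold). *Gdf3* lost its call under the spike-in scaling, without scaling and with normexp, and *Gsc* with normexp. The list's median difference was −0.08, beside −0.02 for all genes. Under the spike-in scaling 1 was higher and 11 were lower (−0.62), where all genes had a median of −0.57 and 9916 of 20848 were lower. The call of *Tdgf1* was that of 1 probe: its levels there were 1.02, −0.31, 0.37 and −0.09, and at E8.5 the other 2 *Tdgf1* probes measured on both arrays differed by −0.30 and 0.53, below the threshold. At E10.5, 0 of 18 were higher and 2 were lower, *Gsc* (2.03-fold) and *Eomes* (1.75-fold, not called with normexp), with a median of −0.03 (0.13 under the spike-in scaling) beside −0.00.

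*Gdf1*, the partner of Nodal, had levels of 4.32, 3.98, 1.74 and 1.87, so that both E8.5 arrays were above both E10.5 arrays. It was 5.95-fold lower at E10.5 in WT and 4.32-fold lower in *Dyrk2*-/- (limma −2.34, adjusted p = 4.81e-06). *Foxh1*, a partner of Smads in Nodal signaling, had levels of 1.23, 1.33, 1.04 and 1.11 and was called in no pair. Between stages, 3 of 19 pathway genes were higher and 5 lower at E10.5 on the WT arrays (median −0.16, all genes −0.08, and 0.02 without scaling), and 3 of 18 were higher and 2 lower on the *Dyrk2*-/- arrays (0.00, all genes −0.05), or 10 higher and 2 lower under the spike-in scaling (0.64). On the WT arrays the higher ones were *Gsc* (3.46-fold), *Eomes* (3.21-fold) and *Acvr2a* (1.53-fold), and the lower ones besides *Gdf1* were *Cer1* (2.16-fold), *Tgif1* (1.78-fold), *Tdgf1* (1.57-fold) and *Mixl1* (at least 1.32-fold). On the *Dyrk2*-/- arrays *Gsc* (3.61-fold), *Acvr2a* (1.65-fold) and *Eomes* (1.52-fold) were higher and *Cer1* was 6.36-fold lower. With normexp *Gsc* was 1.86-fold higher and *Cer1* 2.42-fold lower there, and *Eomes* turned to a log2 difference of −0.04 and was also not called with quantile normalization or the deposited table. *Acvr2a* lost its call in WT with quantile normalization, the spike-in scaling, the deposited table, normexp and the mean over its probes, and in *Dyrk2*-/- with the last 2 of these. In WT *Eomes* and *Cer1* were not called with normexp, and *Tdgf1* was not called without scaling (−0.47). As the mean over its probes, some of them not well above background at E10.5, *Tdgf1* was 3.66-fold lower in WT. Its second probe measured on both arrays differed by 0.10. The other 3 *Tdgf1* probes, measured in WT on the E8.5 array only, were at least 2.85-fold, 1.37-fold and 1.22-fold lower at E10.5, and the first of them at least 4.27-fold lower in *Dyrk2*-/-.

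Node and notochord genes formed a list of 12, of which 11 were measured in each pair. At E8.5, 0 were higher and 1 was lower in *Dyrk2*-/-, *Foxa2* (levels 2.41, 1.35, 1.09 and 0.77), with a median of −0.11. Under the spike-in scaling 7 were lower (−0.66) and without scaling 3, where the medians of all genes were −0.57 and −0.28. At E10.5, 0 were higher and 1 was lower, *T*, the T-box gene of notochord and tail bud, with levels of 2.0, 1.64, −2.25 and −3.74 (2.81-fold lower, 1.52-fold with normexp), and the median was −0.21. *T* was high on both E8.5 arrays and low on both E10.5 arrays, 18.9-fold lower in WT and 41.7-fold lower in *Dyrk2*-/- (10.3-fold and 11.6-fold with normexp). *Shh*, the ligand made in notochord and floor plate (1.06, 0.92, 1.16 and 0.77), and *Pkd2*, a cilium channel (6.43, 6.16, 6.27 and 6.30), were called in no pair at their brightest probes. With stage, *Tbx2* was higher (5.58-fold in WT and 3.64-fold in *Dyrk2*-/-), and 4 genes were called lower in each genotype. These were *T*, *Foxa1* (2.98-fold and 2.44-fold) and *Sox17* (2.11-fold and 2.04-fold) in both, *Foxa2* in WT (2.51-fold) and *Nog* in *Dyrk2*-/- (1.61-fold). *Foxa2* in *Dyrk2*-/- and *Nog* in WT were also lower, just under the threshold. Under the spike-in scaling *Sox17* (−0.39) and *Nog* (−0.05) lost their calls in *Dyrk2*-/-, and *Nog* did so without scaling and with normexp too. The medians were −0.16 in WT (0.05 with quantile normalization) and −0.48 in *Dyrk2*-/- (0.16 under the spike-in scaling).

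Structural and assembly genes of the motile cilium, the kind of genes that *Foxj1* turns on, formed a list of 42. At E8.5, 27 were measured, of which 0 were higher and 5 lower in *Dyrk2*-/-, where 5.14% of all genes were higher and 6.52% lower. Of the 27 differences, 22 were below 0, with a median of −0.30 beside −0.02 for all genes. The lower ones were *Rsph1* of the radial spoke (2.47-fold), *Nme5* (1.62-fold), the dynein heavy chain *Dnah7a* (1.54-fold), and *Dnaic2* (at least 1.25-fold) and *Odf3b* (at least 1.79-fold), both measured on the WT array only. A second well measured *Dnaic2* probe differed by 0.80, in the other direction. With normexp 0 of the 27 were lower and the median was −0.07, where 344 of 20848 genes were lower. Under the spike-in scaling 21 were lower (median −0.84), where 9916 of the 20848 genes were lower and all genes had a median of −0.57. *Dnah11*, the dynein of node cilia, had levels of −3.79, −4.37, −3.72 and −4.14 and was lower in *Dyrk2*-/- at both stages without reaching 1.5-fold.

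At E10.5, 0 of 30 cilium genes were higher and 4 lower in *Dyrk2*-/-, *Dnal1* (1.72-fold, −0.08 as the mean over its probes), *Tppp3* (1.55-fold), *Drc1* (at the threshold) and *Odf3b* (at least 2.21-fold), with a median of −0.17. *Tppp3* and *Drc1* were not called under the spike-in scaling, *Dnal1* and *Drc1* not with normexp, and *Drc1* not with quantile normalization or the deposited table. The spike-in scaling gave 2 higher and 2 lower, with a median of −0.01. With stage, 7 of 30 were higher and 5 lower at E10.5 in WT (median 0.07, but −0.11 with quantile normalization), and 8 of 28 were higher and 1 lower in *Dyrk2*-/- (0.09). The latter counts were 3 and 1 with normexp (−0.04) and 18 and 0 under the spike-in scaling (0.73). In WT the higher ones included *Tppp3* (15.9-fold), *Dnaic2* (3.42-fold), *Rsph9* (3.10-fold) and *Dnal1* (1.91-fold), and the lower ones *Spag16* (2.74-fold), *Rsph1* (2.16-fold), *Nme7* (2.04-fold) and *Tekt4* (1.74-fold). In *Dyrk2*-/- the higher ones included *Tppp3* (8.96-fold), *Rsph9* (2.33-fold), *Dnah7a* (1.97-fold) and *Dnaic1* (1.82-fold), and *Ccdc40* was lower (1.71-fold, −0.13 under the spike-in scaling and −0.47 without scaling). With normexp *Dnal1* and *Tekt4* lost their calls in WT and *Dnaic1* in *Dyrk2*-/-, and in WT *Dnaic2* was 1.56-fold higher and *Spag16* 1.63-fold lower. In WT a second probe measured on both arrays was 1.19-fold higher for *Dnaic2* and differed by −0.24 for *Dnal1*.

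Of 16 ciliogenesis factors, 14 were measured at E8.5, with 1 higher, the cyclin family gene *Ccno* (1.51-fold, not called under any other scaling), and 0 lower. The median of 0.13 became −0.42 under the spike-in scaling, with 3 lower, and −0.13 without scaling. At E10.5, 0 of 15 were higher and 1 lower, *Trp73* (1.51-fold, not called with quantile normalization, the spike-in scaling, normexp or the deposited table), with a median of −0.11, or 0.06 under the spike-in scaling. With stage, 8 of 15 were higher and 0 lower in WT (median 0.62), with *Myb* (3.07-fold), *Kif3c* (2.88-fold), *Ccno* (2.63-fold, 1.64-fold with normexp) and *Rfx4* (1.88-fold) among them. In *Dyrk2*-/- 5 of 15 were higher and 0 lower (median 0.29), with *Myb* (3.22-fold), *Kif3c* (2.35-fold), *Rfx2* (1.94-fold) and *Rfx4* (1.60-fold), of which both *Rfx* genes lost their calls with normexp. Under the spike-in scaling 10 of the 15 were higher (median 0.93), with normexp 2 were, and 2 were lower with quantile normalization and the deposited table.

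**Figure D2:**
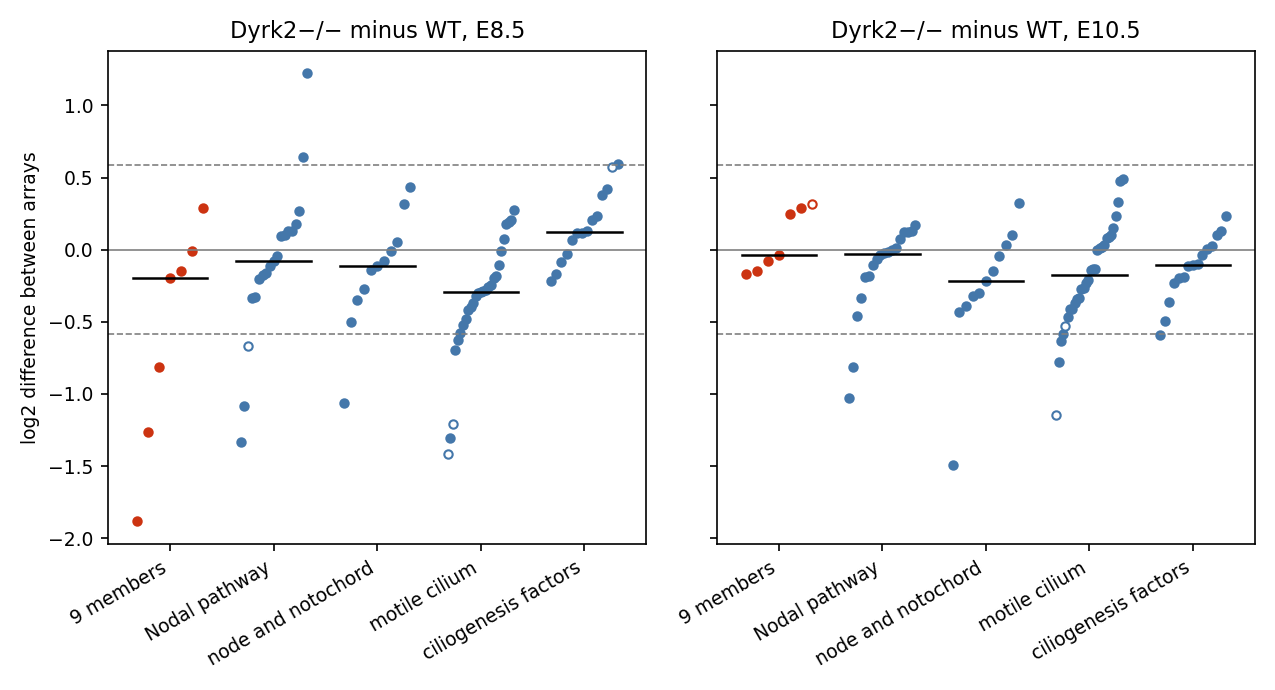
Log2 difference of the *Dyrk2*-/- from the WT array at E8.5 and at E10.5 for the 9 members and 4 lists of related genes, with a point for each measured gene (open where measured on just 1 array), a bar at the median and dashed lines at 1.5-fold. At E8.5 the motile cilium genes have a median of −0.30 and the ciliogenesis factors 0.13, which becomes −0.42 under the spike-in scaling.

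Markers of other cell types differed between the same arrays. Yolk sac visceral endoderm markers, 12 genes, had a summed level (intensity over the 75th percentile) of 98.1 in WT and 57.2 in *Dyrk2*-/- at E8.5, while the E10.5 arrays had 27.1 and 24.3. At E8.5, 8 of the 12 were lower and 0 higher in *Dyrk2*-/- with a median of −0.63, and *Afp*, the gene of the list with the brightest probe, had 11.0 and 7.43, and 16.4 and 13.6 at E10.5. With stage, 9 of these 12 were lower in either genotype, while *Trf* was higher in both and *Afp* and *Slc39a8* in *Dyrk2*-/-, with a median of −4.19 in WT and −3.73 in *Dyrk2*-/- when values below background are taken as bounds, as *Cfc1*, *Noto* and *Lefty2* were, and their part in those differences was not tested. Primitive erythrocyte markers, 10 genes, summed to 113, 427, 1169 and 1357 over the 4 arrays, with *Hbb-bh1* at 10.3, 142, 292 and 339. At E8.5, 8 of 9 were higher in *Dyrk2*-/- with a median of 4.27, and *Klf1* and *Epb42* were not well above background in WT. At E10.5, 6 of 10 were higher with a median of 0.89. Both lists moved with the E8.5 differences of *Lefty2*, *Cfc1* and *Foxj1*, and their part in them was not tested.

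Primitive streak and tail bud markers, 11 genes, summed to 61.6, 50.5, 8.31 and 7.48, with *Cdx2* at 18.1, 13.0, 0.319 and 0.195, and *Msgn1* and *Nkx1-2* were not well above background at E10.5. All 11 were lower at E10.5 in either genotype, as *Noto*, *Cfc1* and *Lefty2* were, and their part in these stage differences was not tested. Between genotypes 2 of 11 were lower at E8.5 (*Evx1* and *Nkx1-2*, both 1.55-fold) and 3 of 9 at E10.5, among them *Tbx6* (3.16-fold). The E8.5 count was 8 under the spike-in scaling, 4 without scaling and 1 under the other scalings. Neural tube markers, 9 genes, summed to 22.5, 22.9, 61.0 and 48.8, with *Nes* at 3.83, 5.64, 22.8 and 18.4, and *Dcx* was not well above background at E8.5. Neural tube markers were higher at E10.5 for 5 of 9 genes in either genotype, as *Foxj1* was, and their part in its difference was not tested. Heart markers, 8 genes, summed to 219, 232, 135 and 134, with *Myh6* at 72.7, 70.1, 33.7 and 37.0. Trophoblast and decidua markers, 10 of 11 on the array, summed to 9.65, 9.31, 7.04 and 8.39, with *Hand1*, which the embryo also expresses, at 4.67, 4.70, 1.36 and 1.58. *Prl3c1*, *Tpbpa* and *Cts7* were not well above background on any array, and *Prl3d1* was so on the *Dyrk2*-/- E8.5 array only. Between genotypes at E8.5, *Prl3d1* and *Prl8a2* (2.72-fold) were higher and *Dcn* lower (1.57-fold) among the trophoblast and decidua markers. In that list 3 were lower under the spike-in scaling, 2 without scaling and 0 with normexp. Also at E8.5, *Neurog2* (1.81-fold) and *Olig2* (1.75-fold) were higher among the neural tube markers. There 0 were higher and 5 lower under the spike-in scaling, and 0 were higher with normexp. At the same stage *Myl2* was higher (1.75-fold) among the heart markers. Of the heart markers, 0 were higher and 3 lower under the spike-in scaling, and 0 and 1 without scaling. At E10.5 *Dcx* was 1.51-fold lower, and 0 heart, trophoblast and decidua markers were called. Under the spike-in scaling 0 neural tube markers were lower there and 1 of the trophoblast and decidua markers was higher.

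**Figure D3:**
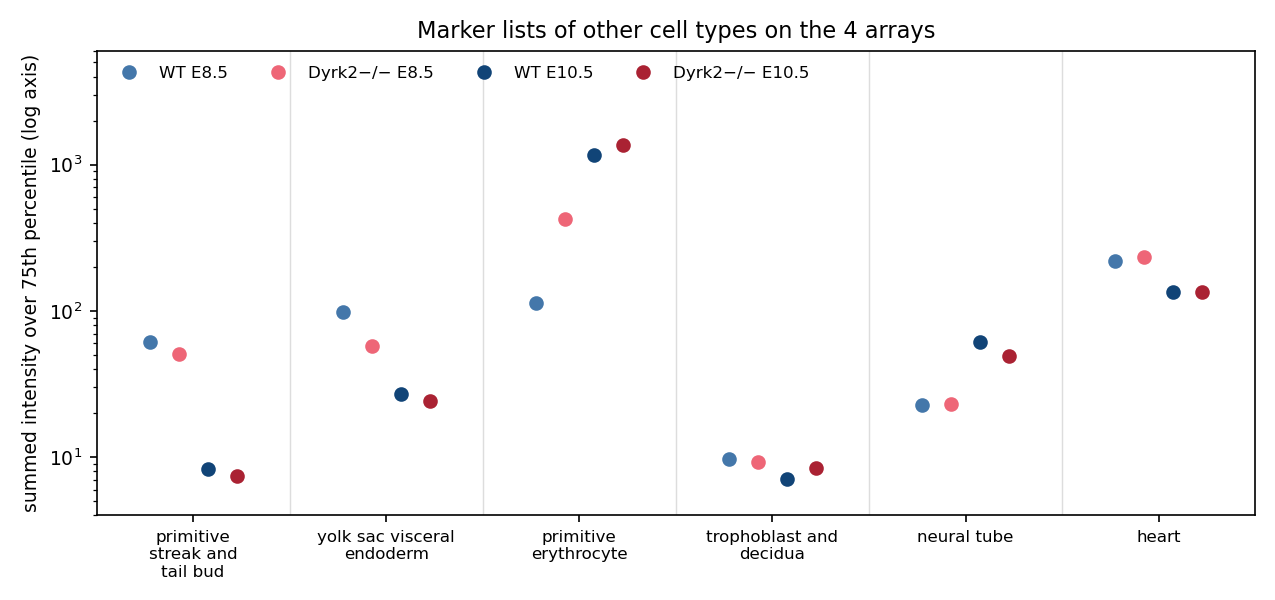
Summed level of 6 marker lists on the 4 arrays, as intensity over the 75th percentile of the array on a log axis, with a point for each array. Between genotypes at E8.5 the primitive erythrocyte sum goes from 113 to 427 and that of yolk sac visceral endoderm from 98.1 to 57.2, and between stages the primitive streak and tail bud sum goes from 61.6 to 8.31 in WT.

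The genes most alike to a member were sought among 18806 genes well above background on all 4 arrays, by the Euclidean distance between mean-centred log2 levels over the 4 arrays. For *Lefty2* they were a long intergenic non-coding RNA of chromosome 5 (distance 0.393), *Pou5f1* (0.487) and *Cbr3* (0.509). For *Cfc1* they were *Rhox5* (0.268), *Creb3l3* (0.502) and the transcript AK145627 (0.559), and for *Foxj1* *Jam2* (0.130), *Ago4* (0.165) and *Lrrtm1* (0.188). With 4 arrays many genes can share a profile.

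The differences rest on single probes of 60 bases, of which the first 30 bases are shown for the 4 members called with stage in both genotypes and for *Lefty1*, the neighbour of *Lefty2* on chromosome 1 (array annotation, mm9). The *Lefty2* probe lies at 182828893 to 182828952 and the *Lefty1* probe at 182868137 to 182868196, and their best ungapped match is 19 of 60 bases. The *Cfc1* probe spans 34594245 to 34600893 of chromosome 1, wider than its 60 bases, so that it crosses an intron. The *Noto* probe lies at 85378752 to 85378811 of chromosome 6 and the *Foxj1* probe at 116192214 to 116192273 of chromosome 11.
Lefty2: aagggtgtacctgagtctttctggccattg
Lefty1: ctttcatgcaaatctgaagtgctcattata
Cfc1: tgtactgcctcccacaccaaacgttcagcc
Noto: agtgttgaggtaatgggtaaaagcctccat
Foxj1: ggagagactaatatagtgaatgtagttata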

How the data were processed

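Total RNA of whole embryos was measured on 4 arrays, 1 per genotype and stage. Per the file headers, the authors' scanner output came from Feature Extraction 10.7.1.1 (the processing notes give 9.5.1.1), and its intensity is linear, background-subtracted and detrended within an array. The deposited table of intensity shares 1 distribution over the 4 arrays. Values of other samples filled 0 columns.

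Log2 intensities of a probe's spots were averaged and the 75th percentile subtracted. RefSeq accessions gave the current name for 32993 of 56604 probes and renamed 1535. Well above background were 31370, 30226, 31818 and 31943 probes (WT and *Dyrk2*-/- at E8.5, then at E10.5). Stage and genotype were fitted with limma 3.58.1 (eBayes with an intensity trend, Benjamini-Hochberg) in R 4.3.3, with data.table (1.17.8) for reading. All else used matplotlib 3.10.9, pandas 2.3.3 and numpy 2.4.6 in Python 3.11.15. The fit and the fold threshold were also run on simulated data with the same noise for every probe and few changed probes. Noise on these arrays depends on intensity, and 35.3% of probes were called for stage. That run thus gives no error rate for these arrays.

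Named are all members and *Dyrk2*, up to 4 genes of a list per direction and pair called and measured on both arrays, a set of 8 genes always (*T*, *Foxa2*, *Shh*, *Gdf1*, *Tdgf1*, *Foxh1*, *Dnah11*, *Pkd2*) and 3 most alike genes for members with a range of at least 1 log2 unit. Genes measured on 1 array of a pair, marker genes and the second *Dnaic2* and *Dnal1* probes were named after their values were seen. Members and lists were chosen with earlier results of these data known. Some listed genes are not reported here and were left out of the lists, counts, medians and sums. Alternatives were quantile normalization, spike-in scaling (7 of 10 probes), no scaling, normexp (offset 50), the deposited table, no filter, a filter on all 4 arrays, the mean over probes, 2-fold, and limma without trend. Raising dim values to the lowest measured level was chosen after seeing the data.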

Additional observations from a re-analysis of the deposited data

Results flagged for a closer look

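Among the members and the called genes of largest fold in the 4 lists of related genes, taken at their brightest probes where these were well above background on all 4 arrays, 5 genes and no member differed between genotypes in opposite directions at the 2 stages, each by more than the scanner's error of that difference, and whether the stages differ was not tested, since 1 array per group leaves no residual. A dimmer *Rfx3* probe did so too (−0.42 and 0.43), as did dimmer probes of *Pkd2* (0.43 and −0.24), *Nme7* (−0.31 and 0.22) and *Invs* (−0.56 and 0.27). The marker genes were not searched. The share of all genes that meet the same rule was not counted, so that the 5 are not read as a result about these lists. The margin was small for *Tekt4* at E10.5 (0.24, with an error of 0.23). The log2 difference of *Dyrk2*-/- from WT at E10.5 minus that at E8.5 was 1.63 for *Rsph1* (−1.30 at E8.5 and 0.33 at E10.5), 0.87 for *Spag16* (−0.39 and 0.48) and 0.53 for *Tekt4* (−0.30 and 0.24). It was −1.09 for *Ccno* (0.60 and −0.49) and −0.62 for *Tbx2* (0.32 and −0.30). The directions were opposite in 6 of 6 ways of making the values, except for *Tbx2*, where spike-in scaling gave both stages the same sign.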

How the results depend on the processing

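The count of members called between genotypes at E8.5 (3) was 5 under spike-in scaling, where 49.0% of all genes were called. The count at E10.5 (0) was 1 with no filter, *Noto*, whose values there lie below background. The count between *Dyrk2*-/- stages (5) was 3 with normexp, without *Lefty1* and *Lefty2*, and 3 with the filter on all 4 arrays, which leaves *Lefty1* and *Noto* untested. It was 4 with dim values raised to the lowest measured level, an alternative chosen after seeing the data. The limma count for genotype (0) was 1 without scaling, *Lefty2* (log2 −1.15). *Eomes* between *Dyrk2*-/- stages turned to −0.039 with normexp. Except for the filter, the cause was not tested. The other counts were within 1.5 times the reported ones. Of 729 values of single genes and pairs under alternatives, 571 stayed within the scanner's error of the reported value, 157 moved further and in 1 a difference called as reported changed sign (uncalled differences that changed sign count among the others). Of 124 limma coefficients of members, 120 kept their side of the threshold, 2 lost the call (*Lefty2* for stage) and 2 gained it (*Lefty2* for genotype and *Dand5* for stage, both without scaling). Over all probes limma called 2633 for stage under spike-in scaling and 6437 without the trend (11397 as reported), and between 0 and 729 for genotype. Leaving out an array was not possible, since 1 array per group leaves no residual. Signal near background limits *Lefty1*, *Noto* and *Pkd1l1*, and also *Foxj1* on the *Dyrk2*-/- E8.5 array and *Cfc1* on both E10.5 arrays. Embryo number, the allele and whether the *Dyrk2* probes lie outside the deleted bases are unknown.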
